A study of Mus musculus with 2 samples.

Results

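Autophagy and lysosome genes were examined in liver RNA of male mice of the inbred C57BL/6J strain that either ate ad libitum (AL) or were calorie-restricted (CR). The 43 genes were listed by name and fall into 19 genes of autophagosome formation, 7 of receptors and mitophagy, 2 transcriptional regulators and 15 of the lysosome. All mice were wild type and singly housed under 12 h of light and 12 h of dark, entered the experiment at 8 weeks of age, and were 5 months old per the labels. AL mice had free food for 12 weeks, whereas CR mice had food cut by 20% for 1 week and by 40% for the following 11 weeks. Equal amounts of RNA from 3 mice of a diet were combined into 1 pool, and 1 Affymetrix array with 45101 probe sets, groups of short probes against one transcript, was hybridised per pool. There was thus 1 value per diet, no spread between mice and no test, and every difference below compares the pools and not the diets.

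A member was represented by the probe sets that the platform annotation gave its symbol alone. Of the 43, 41 had such a probe set. Optn, a ubiquitin-binding receptor, had none, and Bnip3l, the mitophagy receptor also called Nix, was on probe sets shared with other symbols and was not used. Of those 41, 40 were measured, meaning that the brightest probe set reached an intensity of 7.38, the median of all values, in at least 1 pool. Pik3c3, the lipid kinase Vps34, stayed under that limit in both pools, where it read 6.31 (AL) and 5.18 (CR). All 40 lay above the limit in both pools, so no member was measured only because it was high in 1 of them. Across the whole array 12644 of 18193 genes were measured.

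Autophagy encloses cytoplasm in a double membrane, the autophagosome, which fuses with the lysosome. The Ulk1 kinase complex and the Vps34 lipid kinase complex start the membrane, the Atg conjugation enzymes attach small ubiquitin-like proteins to it, and receptors such as p62 bring cargo in. Lysosomal proteases, lipases and glycosidases then degrade the cargo, and NPC1 and NPC2 pass cholesterol out of the lysosome. In liver the process is known to supply amino acids and fatty acids when food is scarce, and the factors TFEB and TFE3 are known to switch on many of its genes through a DNA element called CLEAR.

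Promoters of 4 members are shown. Bnip3 is the gene that differed most, and Atg3, Ctsa and Ctsd are the members whose promoters held TCACGTGA, a longer core of that element. All 4 hold CACGTG, its centre, as do other members named below. These promoters also cover both ends of the pathway. They are the 250 bases before the start of Bnip3 (chr7:138909507-138909756, minus strand), Atg3 (chr16:45158579-45158828, plus strand), Ctsa (chr2:164833523-164833772, plus strand) and Ctsd (chr7:142387828-142388077, minus strand), from RefSeq on GRCm38.p6, read 5′ to 3′ on the strand of the gene. Capitals mark the E-box CACGTG, and where it is flanked as TCACGTGA, the longer CLEAR core. Bnip3 holds the E-box alone, without those flanks.
Bnip3: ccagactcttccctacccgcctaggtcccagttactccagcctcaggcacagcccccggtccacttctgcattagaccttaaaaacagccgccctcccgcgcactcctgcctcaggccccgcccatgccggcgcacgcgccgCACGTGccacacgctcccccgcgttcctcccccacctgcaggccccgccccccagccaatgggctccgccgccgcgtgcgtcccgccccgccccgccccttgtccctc
Atg3: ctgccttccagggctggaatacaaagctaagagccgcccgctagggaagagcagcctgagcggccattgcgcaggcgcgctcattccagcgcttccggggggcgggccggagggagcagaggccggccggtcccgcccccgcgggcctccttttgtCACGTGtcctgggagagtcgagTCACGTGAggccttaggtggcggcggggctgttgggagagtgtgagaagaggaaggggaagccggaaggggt
Ctsa: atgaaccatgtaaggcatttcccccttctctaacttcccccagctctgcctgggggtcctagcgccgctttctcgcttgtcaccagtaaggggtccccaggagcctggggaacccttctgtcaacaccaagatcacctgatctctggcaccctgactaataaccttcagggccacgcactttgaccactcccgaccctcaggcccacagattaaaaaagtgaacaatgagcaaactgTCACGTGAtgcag
Ctsd: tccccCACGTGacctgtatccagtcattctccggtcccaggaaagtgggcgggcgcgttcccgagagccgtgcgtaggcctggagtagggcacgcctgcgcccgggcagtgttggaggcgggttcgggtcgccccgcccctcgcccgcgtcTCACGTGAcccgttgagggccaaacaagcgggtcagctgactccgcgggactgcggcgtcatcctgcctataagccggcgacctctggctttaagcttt
The E-box began 108 bases before the start of Bnip3, 94 and 71 bases before that of Atg3, 12 bases before that of Ctsa, and 245 and 98 bases before that of Ctsd. RefSeq promoters were matched for 34 members, with 40 start sites. CACGTG was found in 9 of these 40 windows (22.5%) against 6.02% of 32851 windows of the same length over all genes, searched on both strands. Those 9 belonged to Atg3, Atg5, Atg7, Bnip3, Ctsa, Ctsd, Ctsl, Gaa and Lamp1. TCACGTGA, which contains CACGTG, was found in 3 of 40 (7.5%) against 0.785%. The longer palindromic form of CLEAR and the forkhead motif GTAAACA were in no member window, against 0.24% and 3.17% of all windows. A match is only a run of letters, and its use in these livers was not measured. The 9 genes with an E-box lay in both directions in the CR pool, from 1.16 for Bnip3 and 0.59 for Atg7 to -0.25 for Lamp1 and -0.43 for Ctsl, as log2 differences CR minus AL.

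Autophagy and lysosome genes as a whole differed little between the pools. Of the 40 measured genes, 17 had a log2 difference above 0, 22 below 0, and 1, Tfeb, at exactly 0. Over all measured genes, 47.4% lay above 0 and 52.1% below. Only Bnip3 reached a 2-fold difference upward, 1 of 40 against 1.80% of all measured genes, and no member reached it downward, against 2.79%. At 1.5-fold, 4 members were higher, Bnip3, Npc1, Atg10 and Atg7, against 6.76% of all measured genes. As many, Gabarap, Neu1, Nbr1 and Sqstm1, were lower by 1.5-fold, against 9.49%. The median over the members was -0.07, the quartiles were -0.38 and 0.24, and the extremes were -0.79 and 1.16. Over all measured genes the median was -0.02 and the quartiles were -0.29 and 0.23. These shares lie near the array's background.

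**Figure D1:**
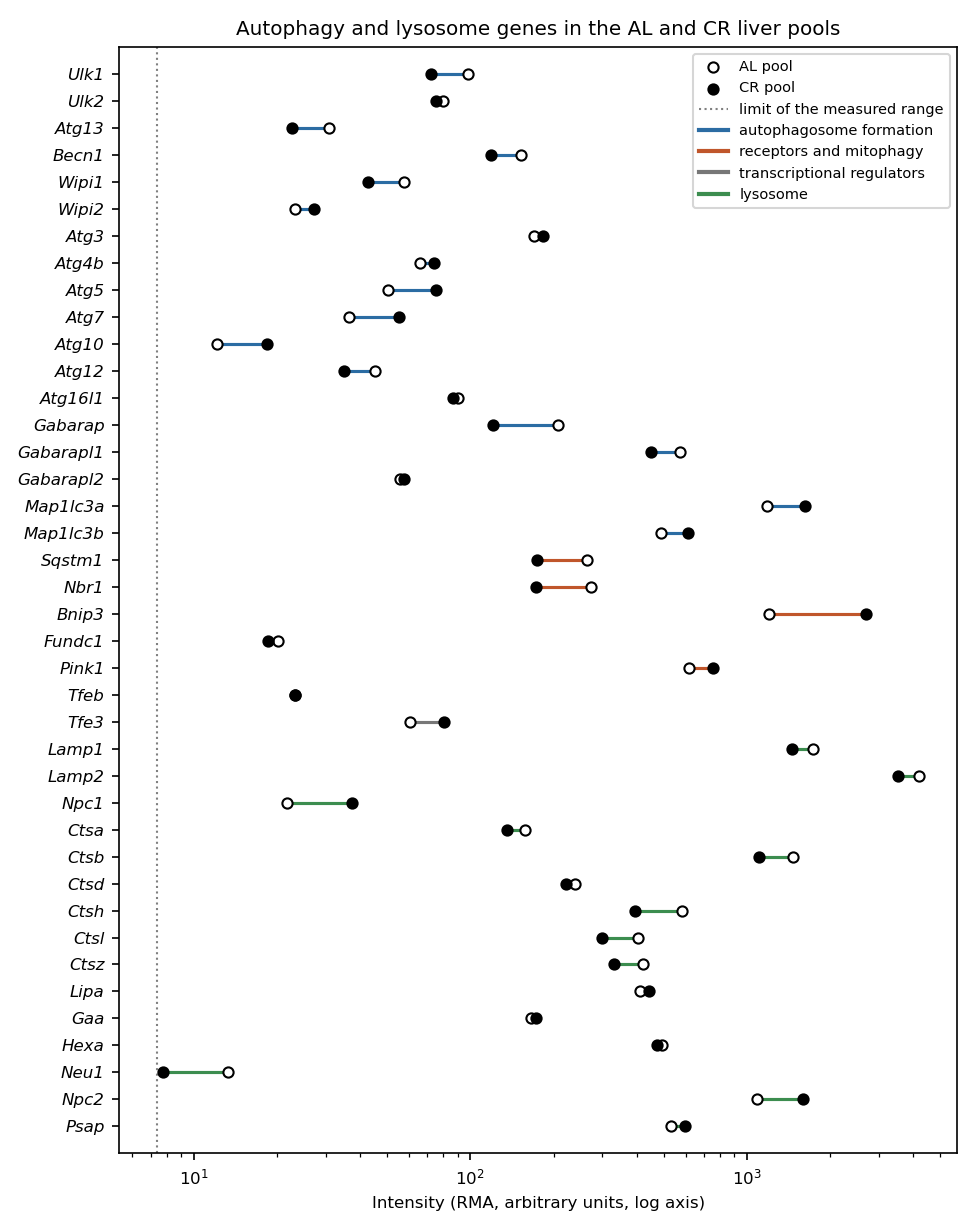
Intensity of each measured member in the AL pool (open circles) and the CR pool (filled circles) on a log axis, 1 value per pool, with lines coloured by class and the limit of the measured range dotted. Bnip3 has the longest line, from 1204 to 2686, and most other pairs lie close together.

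The 3 classes had medians of -0.01 for autophagosome formation (18 genes), -0.12 for receptors and mitophagy (5 genes) and -0.21 for the lysosome (15 genes). Their ranges overlapped widely, from -0.79 to 0.61, from -0.67 to 1.16 and from -0.78 to 0.78. With 1 array per diet the difference between classes was not tested. Among lysosomal members 10 lay below 0 and 5 above, and among those of autophagosome formation 9 lay on each side, where 52.1% of all measured genes lay below 0. The lower medians depended on the probe sets. Without probe sets of the types _x_at, _s_at and _a_at the lysosome median was 0.10 over 9 genes and that of receptors and mitophagy 0.36 over 4, and the latter was 0.29 over 3 genes whose probe sets shared a sign. Leaving out those types also meant that Sqstm1 was read from a dim probe set at 0.46, under the limit in AL, and Ctsl from a dim one at 0.10.

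**Figure D2:**
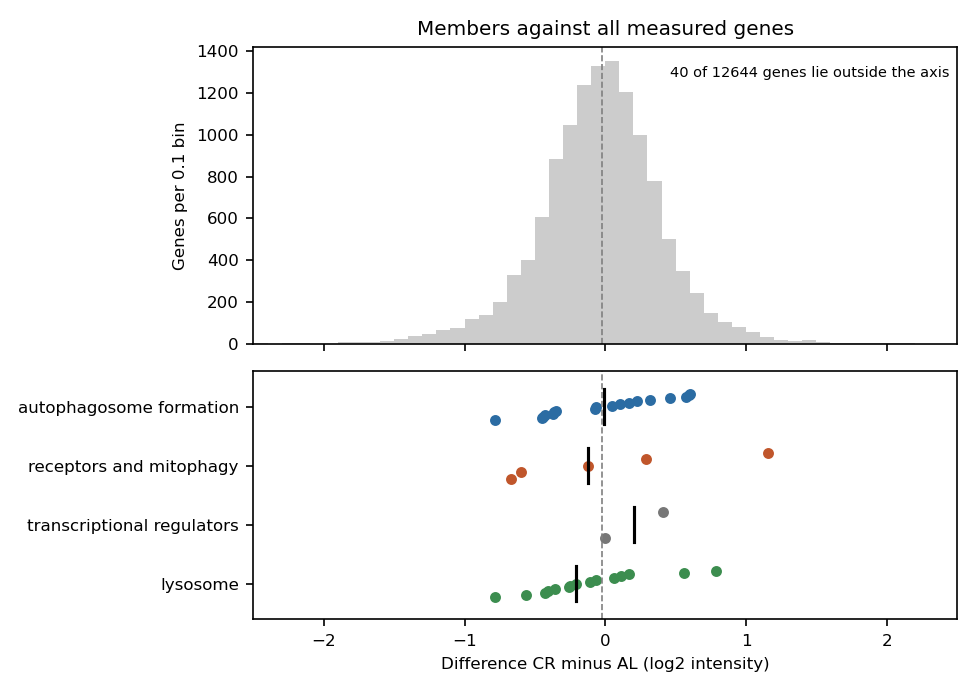
Top, histogram of the log2 difference CR minus AL over 12644 measured genes in bins of 0.1, with 40 genes outside the axis. Bottom, each measured member as a point by class with the class median as a black bar; the dashed line is the median of all genes at -0.02, and all 3 larger classes spread over both sides of it.

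Of the members that start the autophagosome, the 4 measured were lower in the CR pool on their brightest probe sets, by less than 1.5-fold. Other subunits of the same complexes were not uniform. With them 8 of 11 measured genes were below 0 and 3 above, where 52.1% of all measured genes lay below 0. The range ran from Atg14, the Vps34 subunit for autophagy, at -0.60, 1.52-fold lower, to Ambra1, a scaffold of both complexes, at 0.42. Ulk1, the kinase that starts autophagy and is held back by mTORC1 when nutrients are plentiful, read 98.2 in the AL pool and 72.0 in the CR pool, a log2 difference of -0.45, and its other probe set stood at -0.53. Atg13, the adaptor of that kinase complex, went from 30.9 to 22.7 (-0.44), with a second probe set at -0.58. Both genes were thus lower in CR on every probe set in the measured range. Ulk2, the paralog of Ulk1, had 79.4 in AL and 75.3 in CR (-0.08), with other probe sets at -0.50 and 0.10. Becn1, or Beclin 1, a subunit of the Vps34 complex, had 152.4 and 118.5 (-0.36). Its 5 probe sets ran from -0.38 to 0.36, so its direction rested on the probe set chosen. The median of the 4 initiation genes was -0.40. Of the WIPI proteins, which read the lipid made by Vps34, Wipi1 was lower at 57.7 in AL and 42.8 in CR (-0.43), on 4 probe sets that were all below 0. Wipi2, which recruits Atg16l1, was higher at 23.2 and 27.1 (0.23), as was its other probe set (0.20).

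Conjugation genes lay in both directions, and the differences of Atg7 and Atg5 did not hold across probe sets. Of 7, 5 were above 0 and 2 below, with a median of 0.17, where 47.4% of all measured genes lay above 0. Atg10, the enzyme that joins Atg12 to Atg5, had 12.1 in AL and 18.5 in CR (0.61) on its single probe set. Atg7, the activating enzyme for both conjugation systems, had 36.5 and 55.1 (0.59) on its brightest probe set, but -0.39 and -0.04 on the others. The one at -0.39 read 36.6 in AL, so the choice by mean over both pools rested on the CR values. Atg5 showed the widest disagreement of any member. Its brightest probe set read 50.6 and 75.2 (0.57), just under 1.5-fold, while others stood at 0.10 and -0.82. The one at -0.82 read 51.6 in AL, so here too the choice rested on the CR values. Atg12, the ubiquitin-like partner of Atg5, was lower at 45.4 and 35.0 (-0.37), with its second probe set at 0.04. Atg3, an enzyme of lipid conjugation whose promoter holds the CLEAR core printed above, had 169.9 in AL and 182.9 in CR (0.11). Atg4b, a protease of the conjugation system, had 65.9 and 74.0 (0.17, others -0.08 and -0.04), and the scaffold Atg16l1 had 90.6 and 86.7 (-0.06).

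Of the remaining genes of autophagosome formation, 5 in number, 3 were above 0 and 2 below. Gabarap was lower at 208.2 in AL and 120.7 in CR (-0.79), the largest negative difference of any member and 1.72-fold, on its single probe set. Gabarapl1 was lower by less, at 573 and 450 (-0.35), and its other probe set stood at -0.47. Map1lc3b was higher at 489 and 610 (0.32), with all 4 probe sets above 0 and running from 0.02 to 0.44. Map1lc3a was higher on its brightest probe set, at 1180 and 1620 (0.46), and lower on the dimmer one (-0.15). Gabarapl2 had 55.7 in AL and 57.6 in CR (0.05), with 0.43 on its other probe set. No pair of values here reached 2-fold, and probe sets for such close relatives may pick up each other's transcripts.

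The receptor class held both the largest positive difference and a pair of lower cargo receptors. Bnip3, a receptor on the outer mitochondrial membrane that draws mitochondria into autophagosomes, read 1204 in the AL pool and 2686 in the CR pool, a log2 difference of 1.16 or 2.23-fold. It was the only one of 90 probe sets of members in the measured range that differed 2-fold, a share not counted over all probe sets of the array. No second Bnip3 probe set was present to set beside it. Pink1, the kinase that marks damaged mitochondria, was higher at 616 and 752 (0.29), and its other probe set agreed in sign at 0.26. Fundc1, another mitophagy receptor, was lower at 20.1 in AL and 18.5 in CR (-0.12), with 2 further probe sets at -0.56 and -0.23. The 3 measured mitophagy genes thus did not share a direction. Sqstm1, the p62 receptor that carries ubiquitinated cargo and is itself degraded by autophagy, was lower at 264.8 and 174.6 (-0.60). Nbr1, a receptor of the same kind, was lower at 273.5 and 172.3 (-0.67). Each had a second, dim probe set above 0, at 5.69 in AL, under the limit, and 7.81 in CR (0.46) for Sqstm1 and 9.64 and 10.1 (0.06) for Nbr1, so the lower values rest on the bright ones.

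Neither measured member of the MiT/TFE family reached 1.5-fold. Tfeb, the factor that binds CLEAR elements, had the same intensity in both pools, 23.3, and Tfe3 had 60.3 in AL and 80.3 in CR (0.41), each on 1 probe set. These factors are controlled mainly by where in the cell they reside, which an array does not read.

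**Figure D3:**
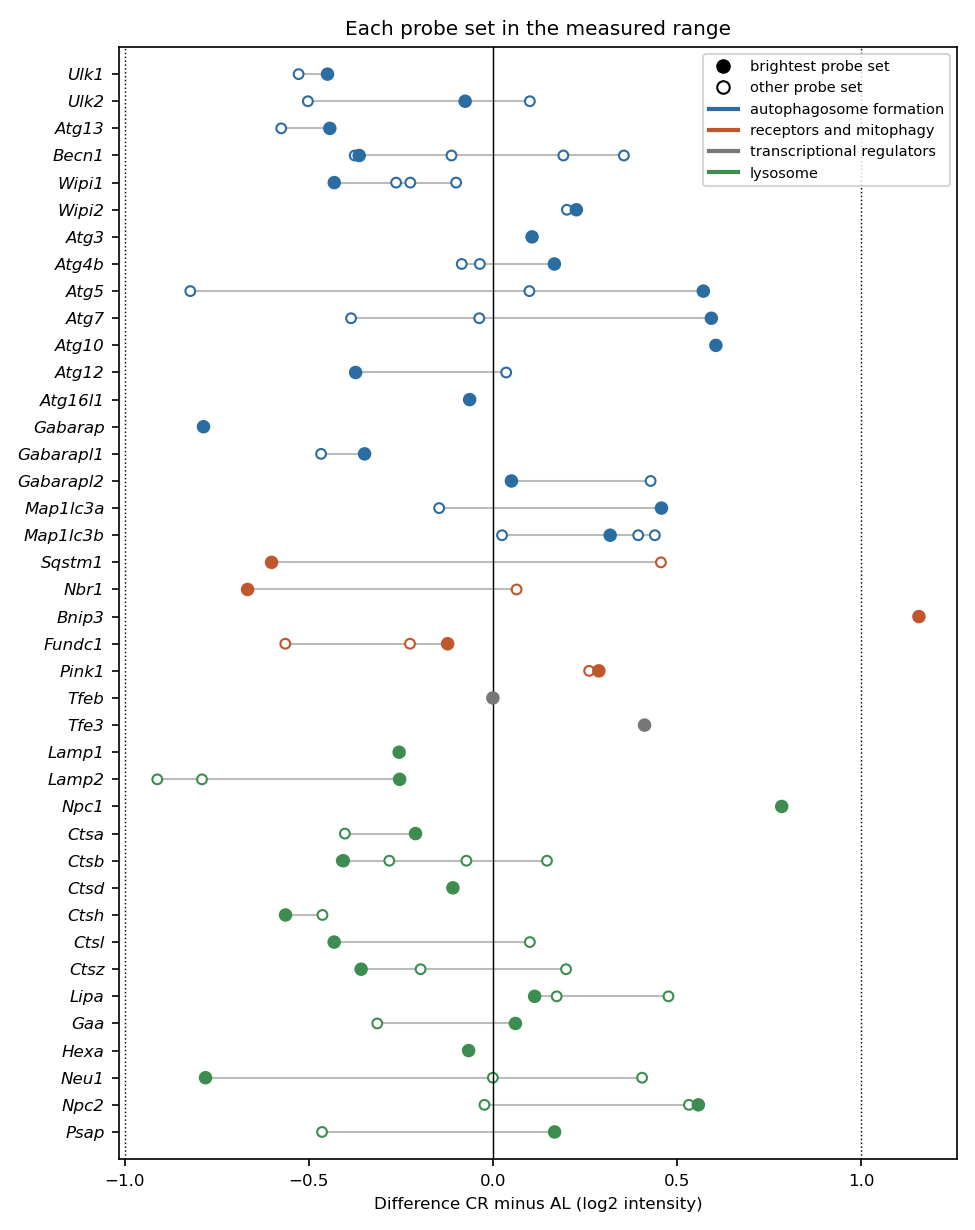
Log2 difference CR minus AL for each of the members' probe sets in the measured range, 1 row per gene, the brightest filled and others open, with dotted lines at 2-fold. Rows that cross 0, such as Atg5 from -0.82 to 0.57, had probe sets in both directions, whereas all 4 Lamp2 probe sets lie below 0.

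Probe sets disagreed in sign for many members. Of 29 members with several probe sets in the measured range, 16 had them on both sides of 0, against 52.7% of 4924 genes on the array, and 11 had only 1. In 8 members every probe set was lower, namely Ulk1, Atg13, Wipi1, Gabarapl1, Fundc1, Lamp2, Ctsa and Ctsh. In 5 every one was higher, namely Wipi2, Gabarapl2, Map1lc3b, Pink1 and Lipa. Of the 4924 genes, 24.9% had every probe set lower and 21.6% every one higher. The median SD over the probe sets of a gene was 0.27 in members and 0.29 over all genes, which exceeds the differences of many members.

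Cathepsins are lysosomal proteases, and the 6 among the members were lower in the CR pool on their brightest probe sets, each by less than 1.5-fold, with a median of -0.38, although Ctsl stood at 0.10 without probe sets of the types _x_at, _s_at and _a_at. The family as a whole was not uniform. With the cathepsins outside the members, 8 of 11 measured were below 0 and 3 above, with a median of -0.30. Of all measured genes 52.1% lay below 0. The cathepsins above 0 were Ctsf at 0.22 (9.10 in AL and 10.6 in CR), Ctso at 0.11 and Ctsk. The AL value of Ctsk, 6.66, was under the limit, and its CR value of 9.58 was at least 1.30-fold higher than that limit. This wider family, like that of the initiation complexes above, was grouped after the values were seen. Ctsh, an aminopeptidase, had 584 in AL and 395.5 in CR (-0.56), and its other probe set stood at -0.46. Ctsl, a broad endopeptidase, had 403.4 and 299.2 (-0.43), with 0.10 on a dim probe set. Ctsb, an abundant cysteine protease, had 1466 and 1106 (-0.41), and 4 of its 5 probe sets were below 0, the exception at 0.15. Ctsz was lower at 422.5 and 329.7 (-0.36), although its other probe sets stood at -0.20 and 0.20. The carboxypeptidase Ctsa, which also protects the sialidase Neu1, had 157.1 and 135.8 (-0.21), and the aspartic protease Ctsd 239.8 and 222.4 (-0.11), the smallest difference of the 6. Ctsa and Ctsd are the cathepsin genes whose promoters, printed above, held TCACGTGA.

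Membrane proteins of the lysosome were lower for the LAMP pair and higher for Npc1. Lamp2, needed for fusion of autophagosomes with lysosomes and for uptake of single proteins, had 4189 in AL and 3514 in CR (-0.25) on its brightest probe set. Its other probe sets stood at -0.25, -0.79 and -0.91, the last from 341 to 181. Lamp1, its abundant partner in the membrane, had 1740 and 1459 (-0.25) on its single probe set. Npc1, the membrane protein that takes cholesterol out of the lysosome, was higher at 21.7 and 37.3 (0.78, 1.72-fold), on 1 dim probe set. Npc2, the soluble protein that hands cholesterol to Npc1, was also higher, at 1084 and 1595 (0.56), with 0.53 on a second probe set and -0.02 on a dim one.

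Other lysosomal enzymes and cofactors were close to 0 or uncertain. Lipa, the acid lipase that splits cholesteryl esters and triglycerides, had 409.5 in AL and 443 in CR (0.11), and its 3 probe sets were all above 0, up to 0.48. Psap, the precursor of the saposins that help degrade sphingolipids, had 530 and 595 (0.17) but -0.46 on a dimmer probe set. Gaa, which degrades glycogen in the lysosome, had 165.8 and 173 (0.06), with its other probe set at -0.31. Hexa, an enzyme of ganglioside breakdown, had 494 and 472 (-0.07). Neu1, the sialidase, stood at -0.78 on a probe set that read 13.3 in AL and 7.73 in CR, close to the limit, while others stood at 0 and 0.41.

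**Figure D4:**
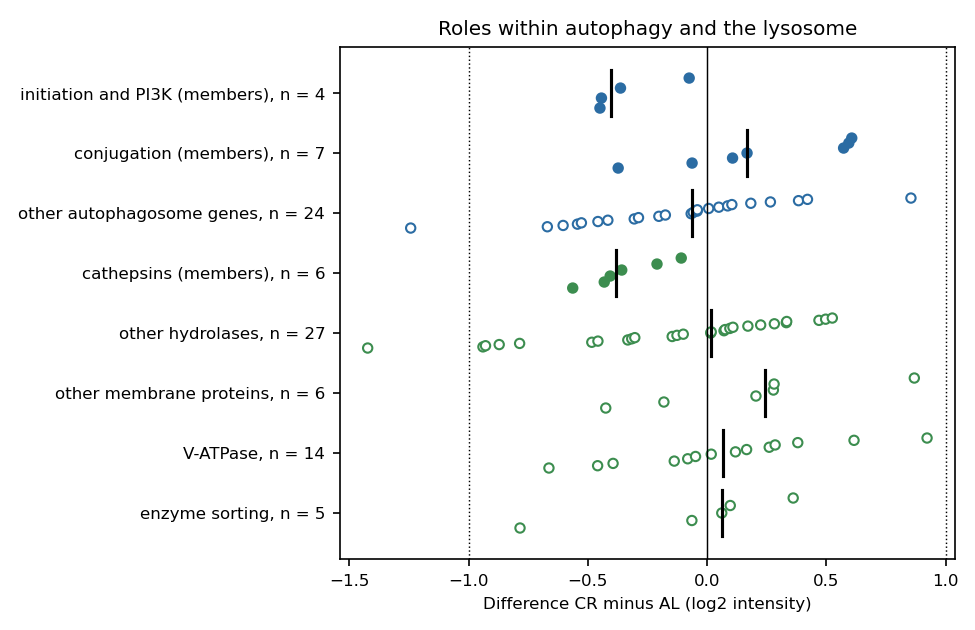
Log2 difference CR minus AL by role, members filled and other pathway genes open, with the median of each role as a black bar and dotted lines at 2-fold. On their brightest probe sets the 6 member cathepsins lie below 0, and the V-ATPase subunits and the other hydrolases, which include 5 further cathepsins, lie on both sides.

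Other genes of the same pathways, from a list of 102 of which 92 were measured, were likewise balanced, with 45 above 0, 47 below and a median of -0.02. None of them was 2-fold higher, against 1.80% of all measured genes, and 3 were 2-fold lower, against 2.79%, a share near that background. Vmp1, an ER membrane protein needed to form autophagosomes, had 135.4 in AL and 57.2 in CR (-1.24) on its bright probe set and 0.34 on a dim one. Stbd1, which brings glycogen to autophagy, had 225.2 and 76.5 (-1.56), a 2.95-fold lower value on its single probe set. Lgmn, the lysosomal protease legumain that processes cathepsins, had 78.3 and 29.2 (-1.42), also on 1 probe set. All 3 differences are larger in size than that of Bnip3.

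Among the other autophagosome genes, 9 of 24 were above 0 and 15 below, with the protease Atg4d at 0.85 and the WIPI relative Wdr45b at -0.67. For this and the counts that follow, 47.4% of all measured genes lay above 0 and 52.1% below. Of 12 other receptor and mitophagy genes 6 were above 0 and 6 below, among them Ccpg1, an ER-phagy receptor, at 0.64 and Tollip, a ubiquitin-binding adaptor, at 0.54. Of 4 other regulators, Foxo3, a factor known to drive autophagy genes, had 119.7 in AL and 189 in CR (0.66, other probe sets 0.44 and, close to the limit, -0.44), while the repressor Zkscan3 stood at -0.08 (other probe set -1.08) and the TFEB relative Tfec lay around the limit, with 7.44 in AL and 6.91 in CR. Among 27 other lysosomal hydrolases and luminal proteins 14 were above 0 and 13 below, with 5 lower and none higher by 1.5-fold, where all measured genes had 9.49% lower and 6.76% higher. The mannosidase Man2b1 stood at -0.94 (dim probe set 0.16) and the dipeptidase cathepsin C, Ctsc, at -0.93, with all 3 of its probe sets lower. The proton pump that acidifies lysosomes, the V-ATPase, had 8 of 14 measured genes above 0 and a median of 0.07, and 6 other membrane proteins had a median of 0.24. The sorting genes, 5 measured, had a median of 0.06, with M6pr, a receptor that delivers enzymes to lysosomes, chosen after its value was seen, at -0.78.

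Macrophages hold many lysosomes, and markers of Kupffer cells, the macrophages of liver, were lower in the CR pool beside the cathepsins. Of 12 measured Kupffer cell and macrophage markers 11 were below 0, against 52.1% of all measured genes. Their median was -0.61 and their summed intensity 3099 in AL and 2634 in CR. None was at an intensity of 0, and the last of the 13 listed, Cd68, lay below the limit in both pools. Timd4 had 10.4 in AL and 5.63 in CR, under the limit, so it counted as measured through its AL value alone. Clec4f, a lectin particular to Kupffer cells, had 195.7 and 121 (-0.69), whereas Csf1r, the macrophage growth factor receptor, had 747 and 703 (-0.09). Neutrophil markers were lower too, all 3 measured of 6, with a summed intensity of 97.1 in AL and 29.3 in CR, and the erythroid gene Alas2 had 40.2 and 7.43. Stellate cell markers had 5 of 6 below 0 and 1 above, with a median of -0.30. Hepatocyte markers, 6 of 6 measured, had a median of -0.06 and summed intensities of 48084 and 46277, with Alb at 12765 in AL and 11794 in CR. In whole liver, fewer cells of a type and less RNA per cell cannot be told apart, and the part of other cell types in the cathepsin and receptor values was not tested.

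The arrays were similar in overall level, with median intensities of 7.35 in AL and 7.42 in CR. Beta-actin and Gapdh control probe sets were lower in CR, all 6, from -1.61 to -0.67. Their 3′ ends far outshone their 5′ ends in AL and CR, by 83.5 and 89.7 times for beta-actin and 46.9 and 53.2 for Gapdh. What this did to probe sets away from the 3′ end was not tested. Hybridisation controls, spikes added to each array, were higher in CR by a median of 1.02, from 0.33 to 1.32 over 18 probe sets. The 4 among them for the cre spike had a median of 0.37. Scaling on all 18 would move the median of all measured genes to -1.04 and Bnip3 to 0.14, so all directions here are relative to the typical gene on the array.

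**Figure D5:**
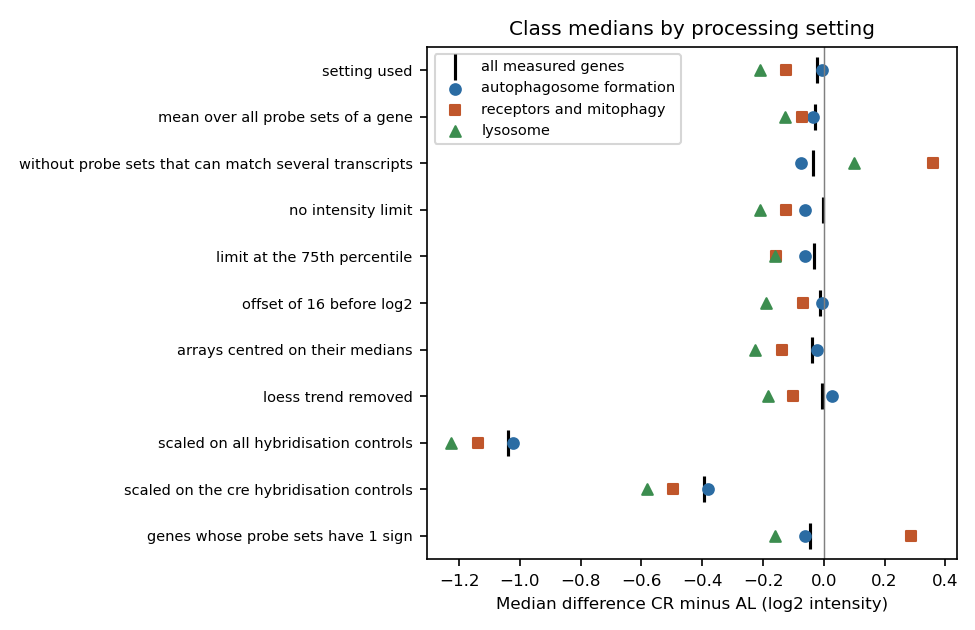
Median log2 difference CR minus AL of each class (coloured marks) and of all measured genes (black bar) under the setting used and 10 alternatives. Scaling on hybridisation controls moves classes and all genes together. Apart from that, the receptor class, of 5 genes, moves most under rules on probe sets, to 0.36 over 4 and 0.29 over 3. For the 0.36, Sqstm1 is also read from a dim probe set at 0.46, under the limit in AL, in place of its brightest at -0.60.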

How the data were processed

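Liver RNA, extracted with Trizol, was pooled from 3 mice per diet and labelled as biotinylated cRNA from 6 ug of total RNA, per the labels' protocols. Per the submitters' processing notes, the authors made the deposited intensity values, 1 column for each pool, with RMA. RMA corrects background, normalizes arrays to each other and summarises each probe set, so a shift of most genes together would be hidden. The values were on a linear scale, and the sources used here give no RMA version, later scaling, detection calls or array build.

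Intensities were taken to log2 and subtracted, CR minus AL. Gene names came from the platform annotation: 34945 probe sets had 1 symbol, 932 several and 9160 none, besides 64 control probe sets. The 40 measured members matched the RefSeq gene table of GRCm38.p6 by Entrez ID, with 0 symbols differing. Each gene was read from its brightest probe set by mean log2 intensity over both pools and was measured if the higher value reached 7.38. Thresholds of 2-fold and 1.5-fold are rules of size. With 1 array per diet no test, leave-out or pairing was possible, and the number of arrays limits precision. Members and lists were chosen with earlier results of these data known. All members are named. Of the other pathway genes the text names, per class, the 3 largest differences and all of at least 2-fold. Marker lists covered hepatocytes, Kupffer cells, neutrophils, erythroid, endothelial, stellate, cholangiocyte and lymphocyte genes. Endothelial, stellate, cholangiocyte and lymphocyte markers had medians of 0.09 (5 genes), -0.30 (6), 0.29 (3) and -0.03 (2).

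Alternatives were the mean over probe sets, leaving out probe sets of types _x_at, _s_at and _a_at, no limit, a limit at the 75th percentile (21.0), an offset of 16 before log2, median centring, removal of a loess trend (span 0.4), scaling on all or on cre hybridisation controls, and only genes whose probe sets shared a sign. The steps were tested on simulated data. Tools were matplotlib 3.10.9, statsmodels 0.14.6, pandas 2.3.3 and numpy 2.4.6 under Python 3.11.15.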

Additional observations from a re-analysis of the deposited data

How the results depend on the processing

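The medians of all members and of autophagosome formation moved by under 0.1 in the 8 alternatives without hybridisation controls, and the counts of members 2-fold higher (1) and lower (0) were the same there. Over all genes those shares ran from 0.964% to 2.78% higher and from 1.23% to 4.25% lower. Scaling on all hybridisation controls gave medians of -1.09 (all members), -1.02 (autophagosome formation), -1.14 (receptors and mitophagy) and -1.23 (lysosome), where that of all genes was -1.04. It left 0 members 2-fold higher and 23 2-fold lower, against 0.261% and 54.2% of all measured genes. At 1.5-fold 0 members were higher and 33 lower, against 0.482% and 88.1%. It put 39 of 40 members below 0, all but Bnip3, among them Atg10 at -0.41, Atg7 at -0.42 and Npc1 at -0.23. Scaling on cre alone gave -0.44, -0.38, -0.50 and -0.58, where all genes had -0.40. It left 0 members higher and 3 lower by 2-fold, against 0.759% and 8.15% of all measured genes. By 1.5-fold 1 was higher and 16 lower, against 2.04% and 31.2%. After leaving out _x_at, _s_at and _a_at probe sets the lysosome median was 0.10 over 9 genes and that of receptors and mitophagy 0.36 over 4. Neu1 then stood at 0.41 and Sqstm1 at 0.46, each on a dim probe set. That setting measured 31 members, of which 2 were 1.5-fold lower, against 10.0% of all genes in it. Among genes whose probe sets shared a sign, the receptor median was 0.29 over 3 genes and the lysosome median -0.16 over 8. In that setting 1 of 23 members was 1.5-fold lower, against 10.2% of all genes in it. The mean over probe sets left 1 member 1.5-fold lower, against 7.04% of all genes. The offset of 16 left 1 higher and 2 lower by 1.5-fold, against 3.56% and 4.86%. For other moved values the cause was not tested. No paired analysis was possible because each diet had 1 pool, and signal close to the limit of 7.38 cannot be told from background.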

Other observations

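Outside the listed members, several genes of the same pathways had 1 probe set past 2-fold while their brightest did not. This held for 7 probe sets of 7 genes among 157 probe sets of other pathway genes in the measured range, and for 0 of the 90 probe sets of members. The share over the whole array was not counted, so no contrast between the lists is drawn from it. Rb1cc1, which encodes the Ulk1 complex scaffold FIP200, had a probe set at 5.20 in AL, below the limit, and 28.0 in CR, at least 3.79-fold higher, while its brightest stood at -0.04. Tax1bp1, a receptor for ubiquitinated cargo, had probe sets at -0.49, 0.96 and -1.16. Wdfy3, an adaptor for protein aggregates, had one from 32.8 to 74.0 (1.17) beside a brightest at 0.18. Tpp1, a lysosomal peptidase, had one from 35.7 to 74.0 (1.05) beside a brightest at -0.33. Tmem41b, an ER scramblase, had one from 22.4 to 7.63 (-1.55) while its brightest stood at 0.05, and Zkscan3 one from 36.8 to 17.3 (-1.08). For Atp6ap2, an accessory subunit of the V-ATPase, the probe sets agreed in sign, with 0.92 on the brightest, from 1175 to 2226, and 1.04 and 0.43 on the others. These genes were singled out after their values were seen, and whether the probe sets read different transcript forms was not tested.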
